A study of Mus musculus with 2 samples.

Results

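The Toll-like receptors (TLRs) are sensors of microbial products, and the genes described here are 8 of them, Tlr1, Tlr2, Tlr3, Tlr4, Tlr6, Tlr7, Tlr8 and Tlr13, with the co-receptor gene Cd14 and the adaptor gene Myd88. They were taken by symbol from a table of 20002 genes, and all 10 were in it. Whole left kidney of C57BL/6J mice was sequenced as poly(A) RNA in 1 library from Control mice and 1 library from mice labelled as proximal tubule-specific conditional knockout (CKO) of Regnase-2, an RNA-degrading protein encoded by Zc3h12b. The CKO mice received AAV9 carrying an shRNA against Regnase-2 through the tail vein at 11 weeks of age, so the label stands for a knockdown by a virus and not for a deleted allele. The Control mice received control AAV9, described in the study's methods once as an empty vector and once as a control shRNA, so both groups carried virus. The RNA-seq methods give an age of 14 weeks and the AAV9 methods give harvest at 16 weeks, and it is not stated if a single mouse or a pool gave each library. The Control library held 38851231 reads assigned to genes and the CKO-labelled library 43588721, after subtraction of a constant from each deposited column. The authors call the deposited values normalized counts, and that they are reads plus a constant was inferred from the lowest value of each column. With 1 library a group, no difference has a replicate check, and every interval given is a 95% exact interval that covers counting error only and holds if the values are reads.

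TLRs are membrane proteins with a horseshoe of leucine-rich repeats that binds the ligand and a cytoplasmic TIR domain that signals. Tlr1, Tlr2, Tlr4, Tlr5 and Tlr6 act at the cell surface on lipoproteins, lipopolysaccharide and flagellin, whereas Tlr3, Tlr7, Tlr8, Tlr9, Tlr11, Tlr12 and Tlr13 act in endosomes, most of them on nucleic acids. All but Tlr3 signal through the adaptor Myd88 to NF-kappaB. In the kidney, resident macrophages and dendritic cells carry most of the family, and tubular epithelial cells are known to express several members, Tlr2 and Tlr4 among them.

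The target of the shRNA was read first, because it checks the labels. The Control library held 47 reads of Zc3h12b and the library labelled CKO 59, which is a log2 ratio of -0.25 after scaling (-0.83 to 0.33). At this depth no difference of the target mRNA could be detected in whole kidney, and the ratio became 0.16 when the library totals were made equal and 0.42 for the unscaled deposited values, so the target gene did not check the labels. The tissue label held against marker genes: Slc34a1, the sodium-phosphate cotransporter of the proximal tubule, had 147064 and 98124 reads, and Umod, which marks the thick ascending limb, had 90047 and 187056.

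All 10 genes had more reads in the CKO-labelled library, and for 8 of the 10 the difference was at least 2-fold after scaling. For this, reads of that library were scaled by 0.667, the median of the Control to CKO ratios of single genes, and log2 ratios were taken with 1 read added to each side. Of all 17469 genes that reached 10 scaled reads in either library, 13.4% were higher in the CKO-labelled library by 2-fold or more, and 5.35% were lower by as much. None of the 10 genes was at least 2-fold lower. All 10 passed that filter, 9 of them in both libraries and Tlr8 through the CKO-labelled library alone. Their median log2 ratio was 2.09, against 0.022 over all genes kept. In bulk tissue, more cells of a type and more RNA per cell cannot be told apart, and this holds for every difference given here.

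**Figure D1:**
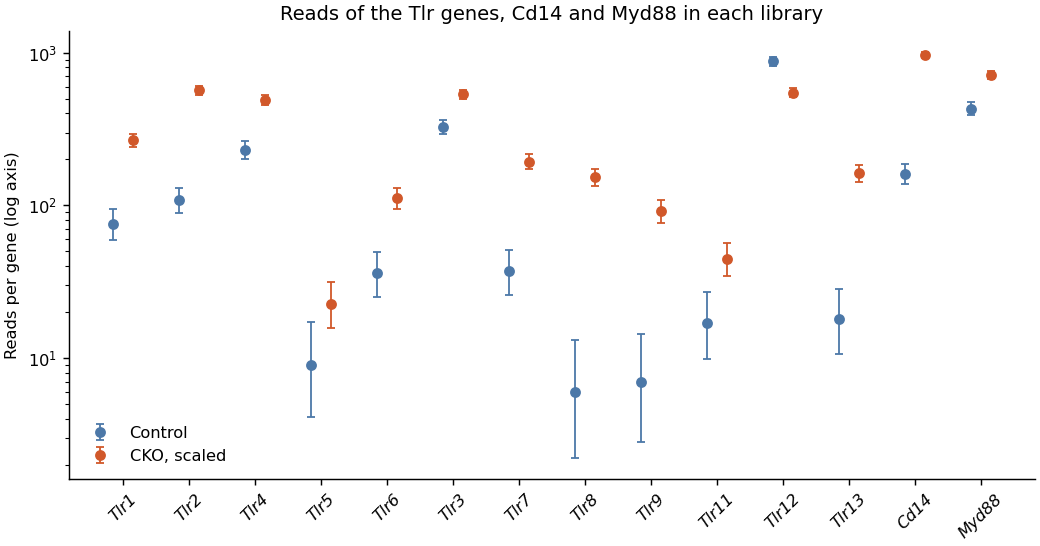
Reads of the 12 Tlr genes of the mouse, Cd14 and Myd88 on a log axis, with 1 point for the Control library and 1 for the CKO-labelled library after scaling, and bars for the 95% Poisson interval of the reads. Tlr12 is the gene whose Control point, 876 reads, lies above the CKO point, and Tlr8 has the widest gap, from 6 reads to 153 scaled reads.

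The receptors of the cell surface differed among themselves. Tlr2, which pairs with Tlr1 or Tlr6 to bind bacterial lipoproteins, rose from 108 Control reads to 849 in the CKO-labelled library. After scaling the difference was 5.24-fold, with an interval of 4.29 to 6.46, the largest difference of the 4 surface receptors among the members. This interval overlapped the upper ends of those of Tlr1 and Tlr6. Tlr1, the partner for triacylated lipopeptides, had 75 and 400 reads and was 3.56-fold higher (2.77 to 4.61). Tlr6, the partner for diacylated lipopeptides, had 36 and 167 reads and was 3.09-fold higher (2.15 to 4.57). The intervals of Tlr1 and Tlr6 overlapped widely, so the partners of Tlr2 did not differ from each other beyond counting error. Tlr4, the receptor for lipopolysaccharide, had 231 and 736 reads and was 2.12-fold higher (1.83 to 2.47), below the intervals of Tlr1 and Tlr2. Its log2 ratio of 1.08 lay close to the 2-fold line and was 0.99 when the deposited values were scaled without subtraction of their constants.

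The endosomal receptors spanned a wider range. Tlr8, a sensor of RNA breakdown products, had 6 Control reads against 229 in the CKO-labelled library, and was 25.4-fold higher, with an interval of 11.5 to 70.1. Its log2 ratio of 4.46 ranked 18 from the top of the 17469 genes. The few Control reads make this ratio depend on the number added to both sides, and with 10 in place of 1 it was 3.35. With the constants left in the deposited values it was 2.77 without scaling and 2.20 with it, and Cd14 and not Tlr8 was then highest of the 10, at 2.94 and 2.36. Tlr13, which mice have and humans lack and which detects bacterial ribosomal RNA, had 18 and 244 reads and was 9.04-fold higher (5.60 to 15.5). Tlr7, the receptor for single-stranded RNA, had 37 and 290 reads and was 5.23-fold higher (3.70 to 7.57). For the deposited values with scaling, the log2 ratios of Tlr13 and Tlr7, 3.11 and 2.35, were 1.91 and 1.67. These 3 receptors were low in the Control kidney and had at least 229 reads each in the other library. Tlr3, which binds double-stranded RNA and signals through the adaptor encoded by Ticam1 in place of Myd88, had 327 and 800 reads. It was 1.63-fold higher (1.43 to 1.86), under the 2-fold line and below the interval of each of the other endosomal members. The median log2 ratio was 1.71 for the 4 surface members and 2.73 for the 4 endosomal members, and with ranges from 1.08 to 2.38 and from 0.70 to 4.46 the groups overlapped. For the deposited values with scaling these ranges were 0.99 to 2.08 and 0.66 to 2.20. The upper end of the endosomal range thus rests on the subtraction of the constants.

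Cd14, a surface protein that loads lipopolysaccharide onto the Tlr4 complex and also serves Tlr2, had 161 Control reads against 1449 in the CKO-labelled library. It was 6.0-fold higher, with an interval of 5.10 to 7.11. Myd88, the adaptor shared by nearly all TLRs and by the receptors of the interleukin-1 family, had 430 and 1079 reads and was 1.67-fold higher (1.49 to 1.88). The co-receptor thus lay with the receptors of large difference, and the common adaptor lay with Tlr3 at the low end. With equal library totals Tlr3 and Myd88 passed the 2-fold line too, with log2 ratios of 1.12 and 1.16, and all 10 genes were then at least 2-fold higher. That scaling moved the median of all genes kept from 0.022 to 0.44, and of the genes past 2-fold it put 89.9% on the higher side, against 71.4% under the scaling used. With the values as deposited these numbers were 0.57 and 96.5%.

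The 4 other mouse Tlr genes were read beside them. Tlr9, the endosomal receptor for unmethylated CpG DNA, had 7 and 137 reads and was 13-fold higher (6.16 to 33.1). Its log2 ratio of 3.53 was 2.58 with 10 reads added to each side, and 2.16 and 1.59 for the deposited values without and with scaling. Tlr5, the flagellin receptor, had 9 and 34 reads and was 2.52-fold higher (1.18 to 5.97), and Tlr11, a receptor for profilin of parasites, had 17 and 67 reads and was 2.63-fold higher (1.53 to 4.77). Tlr12, the partner of Tlr11 in sensing profilin, went the other way. It had 876 Control reads against 819 in the CKO-labelled library, and was lower at 0.623 of the Control (0.566 to 0.686), a log2 ratio of -0.68. The sign held under every scaling tried, though the ratio was -0.26 with equal totals and -0.07 for the values as deposited. Of the 12 Tlr genes, 10 were thus at least 2-fold higher, Tlr3 lay under the line and Tlr12 was lower. Tlr5, Tlr8 and Tlr9 had fewer than 10 Control reads and could pass the filter only by being higher in the CKO-labelled library. Tlr5 and Tlr11 fell under the line when the deposited values were scaled with their constants left in, at 0.39 and 0.62 on the log2 scale, and Tlr5 did so with 10 reads added to each side, at 0.78, and for the unscaled deposited values, at 0.95.

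**Figure D2:**
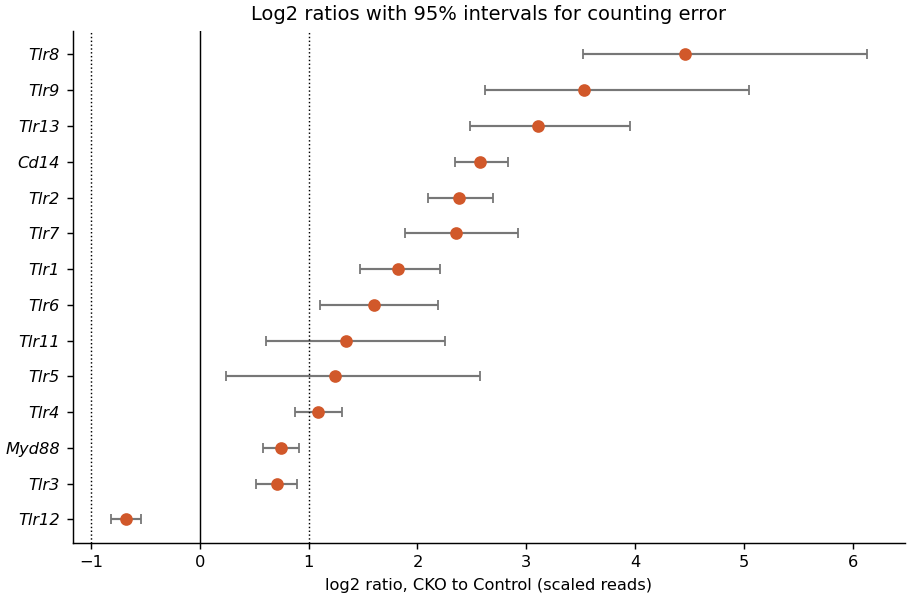
Log2 ratio of the CKO-labelled library to the Control library for the 14 genes, ordered by ratio, with 95% Clopper-Pearson intervals for counting error and dotted lines at 2-fold. Tlr8 lies at 4.46, Tlr3 and Myd88 lie between 0 and the 2-fold line, and Tlr12 at -0.68 lies left of 0.

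Because Tlr12 stood apart, the receptors were also compared within each library, where no scaling between libraries enters. The 12 Tlr genes together held 1747 reads of the Control library, or 45 CPM (counts per 1e6 reads of all genes), and 4772 of the CKO-labelled library, or 109 CPM. Tlr12 held 50.1% of these reads in the Control library (47.8 to 52.5) and 17.2% in the other (16.1 to 18.3). The receptor with most reads changed from Tlr12 to Tlr2, whose share was 6.18% (5.10 to 7.42) and then 17.8% (16.7 to 18.9). Tlr2, Tlr12 and Tlr3 could not be ordered by reads in the CKO-labelled library, since their intervals overlapped. Divided by transcript length, Tlr12 made up 54.9% and 19.1% of the summed level of the 12 genes. Tlr3 kept a similar share of the reads, 18.7% (16.9 to 20.6) and 16.8% (15.7 to 17.9). Tlr8 and Tlr13 went from 0.343% and 1.03% of the reads to 4.8% and 5.11%. With the constants left in, Tlr12 went from 42.2% to 16.2%, Tlr8 from 1.86% to 5.19% and Tlr13 from 2.41% to 5.47%. Without Tlr12 the sums were 871 and 3953 reads.

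**Figure D3:**
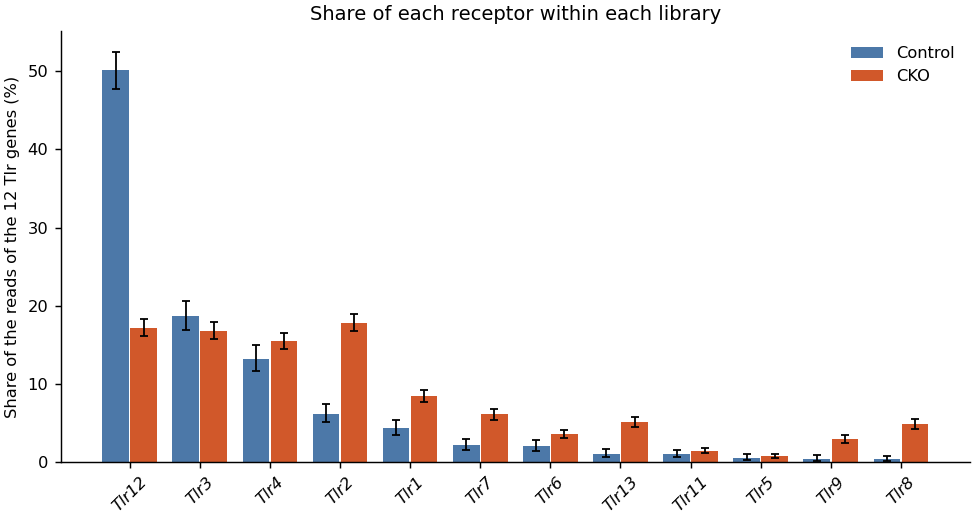
Share of each Tlr gene in the reads of the 12 Tlr genes, in percent, in the Control library and in the CKO-labelled library, with 95% Clopper-Pearson intervals for counting error. Tlr12 goes from 50.1% to 17.2%, and Tlr2 from 6.18% to 17.8%.

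Levels were compared between the 10 genes as reads per kilobase of their longest annotated transcript, with scaled reads for the CKO-labelled library. In the Control library Myd88 was highest at 175 reads per kilobase (159 to 192), followed by Cd14 at 98.1 (83.5 to 114), Tlr3 at 74.2 (66.4 to 82.7), Tlr4 at 56.7 (49.6 to 64.5), Tlr2 at 35.8 (29.4 to 43.3) and Tlr1 at 24.8 (19.5 to 31.1). The intervals of Tlr2 and Tlr1 overlapped. Lower in the order, Tlr6 at 9.79 (6.86 to 13.6), Tlr7 at 9.49 (6.68 to 13.1), Tlr13 at 4.43 (2.63 to 7.01) and Tlr8 at 1.75 (0.642 to 3.81) each had an interval that overlapped that of the next. In the CKO-labelled library the order changed at the top. Cd14 was highest at 589 scaled reads per kilobase (559 to 620), above Myd88 at 293 (275 to 311) and Tlr2 at 188 (175 to 201). Tlr3 at 121 and Tlr4 at 120 did not differ beyond counting error, and both lay above Tlr1 at 88.2. Tlr7 at 49.6 (44.1 to 55.7), Tlr8 at 44.5 (38.9 to 50.6) and Tlr13 at 40.1 (35.2 to 45.4) were close neighbours with overlapping intervals, above or level with Tlr6 at 30.3 (25.9 to 35.2). The highest of the 8 receptors was 42.4-fold above the lowest in the Control library, where the lowest was Tlr8 with 6 reads, and 6.20-fold in the other. With the constants left in, these were 7.03-fold and 5.05-fold, so the difference between the libraries in this span rests on the subtraction.

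Ratios of reads between genes of 1 library put the differences already given in another form and do not add to them. Cd14 had 0.697 reads for each read of Tlr4 in the Control library (0.566 to 0.856) and 1.97 in the CKO-labelled library (1.80 to 2.15). Tlr2 had 0.468 reads for each read of Tlr4 (0.369 to 0.590) and then 1.15 (1.04 to 1.27). For both pairs the intervals of the libraries did not overlap. Tlr1 had 2.08 reads for each read of Tlr6 (1.38 to 3.19) and then 2.40 (1.99 to 2.89), so no change in the balance of these partners was detectable. Tlr8 had 0.162 reads for each read of Tlr7, its neighbour on the X chromosome (0.0559 to 0.388), and then 0.790 (0.661 to 0.942). With the constants left in, the ratios were 0.563 (0.373 to 0.842) and 0.821 (0.698 to 0.964), whose intervals overlap, whereas those of Cd14 and of Tlr2 to Tlr4 stayed apart.

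Several members lie together in the genome, here in the GENCODE M21 annotation of GRCm38, the build the authors name as mm10. Tlr1 (chromosome 5, 64924679 to 64933563) and Tlr6 (64952031 to 64960097) are separated by 18467 bases on the same strand. Tlr7 (chromosome X, 167304929 to 167330558) and Tlr8 (167242696 to 167264329) are separated by 40599 bases, and Tlr13 lies elsewhere on the X chromosome, from 106143204 to 106160493. Tlr2 lies on chromosome 3 from 83836272 to 83841767, Tlr4 on chromosome 4 from 66827584 to 66930284, Tlr3 on chromosome 8 from 45395665 to 45411080 and Myd88 on chromosome 9 from 119335934 to 119341411.

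Tlr1 and Tlr6 also share sequence, which limits how far their reads can be assigned. Of the 100-base windows of the longest Tlr1 transcript, as long as the reads, 8.85% occur in Tlr6, and of those of Tlr6, 7.24% occur in Tlr1. The longest identical run is 229 coding bases, at chr5:64925537-64925765 in Tlr1 and chr5:64953828-64954056 in Tlr6, both on the minus strand. It is shown because a read that falls inside it fits both genes equally:
Tlr1 and Tlr6: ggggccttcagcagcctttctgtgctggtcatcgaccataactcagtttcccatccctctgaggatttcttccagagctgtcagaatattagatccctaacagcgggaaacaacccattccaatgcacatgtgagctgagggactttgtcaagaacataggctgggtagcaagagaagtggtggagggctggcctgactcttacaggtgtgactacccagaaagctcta
The reads of Tlr1 and Tlr6 are uncertain to that extent, and how the authors' counting treated reads with more than 1 position is not stated. Myd88 overlaps Acaa1a on the opposite strand, with which 5.30% of its windows are shared, and the annotated span of Slc22a14 on its own strand. Acaa1a had 4915 and 5095 reads, for a log2 ratio of -0.53, and Slc22a14 had 10 and 3. Before scaling Acaa1a had more reads in the CKO-labelled library, so its sign rests on the scaling. The libraries were made with a stranded kit, but the strand setting of the counting is not stated, so reads of Myd88 and Acaa1a in the overlap cannot be told apart. Of the windows of Tlr3, 0.418% are shared with the opposite-strand gene Gm45542. The other members shared no window with another gene.

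Promoters were looked at after the ratios were seen, because the members were higher together while Tlr12 was not. Whether the ratios follow from the promoters was not tested. RefSeq promoters of GRCm38.p6, from 250 bases before to 50 after a start site, were matched by symbol for 11 of the 14 genes, and Tlr4, Tlr7 and Cd14 were not matched. A kappaB-like motif (GGGA, any 4 bases, CC), an interferon-response-like motif (GAAA, any 2 bases, GAAA) and the PU.1-like motif GAGGAA were searched on both strands, with overlapping matches counted as 1 stretch. Of 32851 promoters in the table, 20.7%, 3.44% and 28.3% hold them. How many hold none of these motifs was not counted. Of the 7 members with a promoter in the table, Tlr2 and Tlr3 held the first motif, Tlr6 and Myd88 the second, and Tlr1, Tlr8 and Tlr13 the third. No motif was common to these 7. Tlr3, which had the lowest ratio of the 10 members, held 3 kappaB-like stretches, and Tlr2 held 2. Tlr1 and Tlr6 had 2 windows each, and in both genes 1 of the 2 held none. Of the other Tlr genes, Tlr5 held the kappaB-like motif, Tlr9 the PU.1-like motif and Tlr11 this and the interferon-response-like motif, and none was found in the window of Tlr12. Such a match is a description of letters, and these libraries do not measure binding.

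The bases before the start are shown for Tlr2, Tlr8, Tlr13 and Tlr12. Tlr2 had most reads of the receptors in the CKO-labelled library, though its interval overlapped those of Tlr12 and Tlr3. Tlr8 and Tlr13 were the members with the highest ratios once the constants were subtracted, and Tlr12 was lower. Capitals mark the motifs on either strand, and the runs stop at the first start given by RefSeq or GENCODE. They are, on the strand of the gene, chr3:83841768-83841858 (minus), chrX:167264330-167264509 (minus), chrX:106143025-106143203 (plus) and chr4:128618620-128618799 (minus).
Tlr2: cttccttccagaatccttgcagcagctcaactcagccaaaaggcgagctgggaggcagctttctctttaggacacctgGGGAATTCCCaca
Tlr8: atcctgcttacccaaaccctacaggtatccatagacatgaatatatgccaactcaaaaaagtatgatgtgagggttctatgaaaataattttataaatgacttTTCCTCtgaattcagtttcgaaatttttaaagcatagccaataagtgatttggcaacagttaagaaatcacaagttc
Tlr13: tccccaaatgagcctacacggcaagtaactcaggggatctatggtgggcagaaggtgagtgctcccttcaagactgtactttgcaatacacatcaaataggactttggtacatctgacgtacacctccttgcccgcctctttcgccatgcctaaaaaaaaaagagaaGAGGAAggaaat
Tlr12: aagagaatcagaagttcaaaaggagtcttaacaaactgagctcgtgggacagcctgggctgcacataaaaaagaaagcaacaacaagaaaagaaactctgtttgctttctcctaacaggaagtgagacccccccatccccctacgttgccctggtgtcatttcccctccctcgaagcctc
The capitals of Tlr2 are a palindrome that fits the kappaB-like motif on both strands, and a second stretch of it begins 8 bases before the RefSeq start. Those of Tlr8 are the PU.1-like motif read on the opposite strand, and those of Tlr13 the same motif on the strand of the gene.

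Proteins that help TLRs bind ligands or reach their compartment were read next. Of 10 such partners and chaperones, 6 were at least 2-fold higher, 1 was at least 2-fold lower, and their median log2 ratio was 1.17. For the deposited values with scaling the median was 0.81 and 4 were at least 2-fold higher. Over all genes kept, 2334 of 17469 were at least 2-fold higher and 934 lower under the scaling used. For the deposited values with scaling these counts were 1196 and 463 of 20002. They are the background for the counts of the lists that follow as well. Clec7a, the beta-glucan receptor that cooperates with Tlr2, had 21 and 622 reads, for a log2 ratio of 4.24. Ly86, the partner of the Tlr4-like receptor Cd180, had 52 and 674 reads, for a log2 ratio of 3.09. For the deposited values with scaling, Clec7a was at 3.02 and Ly86 at 2.49. Lbp, which carries lipopolysaccharide to Cd14, had 72 and 616 reads, for a log2 ratio of 2.50. The ratio of Lbp to Cd14 reads was 0.447 (0.334 to 0.594) in the Control library and 0.425 (0.386 to 0.467) in the other, so no change between these partners was detectable. The gene that was lower was Cd36, a scavenger receptor that works with Tlr2 and Tlr6 and also takes up fatty acids in the tubule, with 23264 and 12578 reads, for a log2 ratio of -1.47. It was at -1.05 with equal totals and at -0.88, short of 2-fold, for the unscaled deposited values. Cnpy3, a chaperone of several TLRs, was at -0.16, and at 0.26 with equal totals. Ly96, which encodes the lipopolysaccharide-binding subunit MD-2 of the Tlr4 complex and was picked after its values were seen, had 43 and 141 reads. It had 0.186 reads for each read of Tlr4 (0.131 to 0.259) and then 0.192 (0.159 to 0.230).

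Of 5 adaptors other than Myd88, 2 were at least 2-fold higher and none at least 2-fold lower, with a median log2 ratio of 0.60, which is the value of Sarm1. Ticam2, the adaptor that links Tlr4 to the Ticam1 branch, had 4 and 60 reads, for a log2 ratio of 3.04, with an interval that began at 1.89. It passed the filter through the CKO-labelled library alone, its ratio was 1.84 with 10 reads added to each side, and it fell under the 2-fold line, at 0.94, when the deposited values were scaled with their constants left in. Pik3ap1, which couples TLRs to phosphoinositide kinase, had 41 and 477 reads, for a log2 ratio of 2.93, or 2.23 for the deposited values with scaling. The remaining adaptors had small ratios. Tirap, which brings Myd88 to Tlr2 and Tlr4, was at 0.55 with 446 and 979 reads and at 1.10 for the unscaled deposited values, Sarm1 at 0.60 with 8 and 19 reads (-0.60 to 2.06) after passing the filter through the CKO-labelled library alone, and Ticam1, the adaptor of Tlr3, at 0.084 with 802 and 1275 reads. Both adaptors with large ratios had few Control reads.

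The cytoplasmic kinases and ubiquitin ligases that carry the signal onward differed little as a list. Of 17, 2 were at least 2-fold higher and none at least 2-fold lower, a share of 11.8% beside 13.4% over all genes, and the median log2 ratio was 0.11. Ikbke, a kinase of interferon regulatory factors, was highest at 1.49 with 114 and 483 reads, followed by Irak4, the first kinase recruited by Myd88, at 1.09 with 192 and 616 reads, or 0.98 for the deposited values with scaling, which left 1 of the 17 past 2-fold, against 3 with equal totals. Map3k8, which activates the ERK branch, was at 0.99 with 54 and 162 reads, too close to the line to be called, and it was past it at 1.02 under equal upper quartiles, 1.40 under equal totals and 1.26 for the unscaled deposited values. The lowest were Chuk, a catalytic subunit of the kinase of the NF-kappaB inhibitors, at -0.57 with 5555 and 5626 reads, and Irak1 at -0.33 with 2965 and 3527 reads. The sign of these low values rests on the scaling, since Irak1 was at 0.084 with equal totals and Chuk at 0.022 with the values as deposited.

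The transcription factors at the end of the pathway had a median log2 ratio of 1.43, and 9 of 13 were at least 2-fold higher. Atf3, a stress-induced factor that limits TLR responses, had 53 and 946 reads, for a log2 ratio of 3.55, or 2.93 for the deposited values with scaling. Irf7, the interferon regulatory factor downstream of Tlr7 and Tlr9, had 224 and 2595 reads, for a log2 ratio of 2.94. Fos, an AP-1 subunit, had 121 and 1299 reads, for a log2 ratio of 2.83. These 3 are themselves known as genes whose RNA is induced by signals, and whether a signal acted here was not tested. Irf3, which is present before a signal arrives, was lowest at -0.14 with 1817 and 2479 reads, and at 0.28 with equal totals, and Irf5 was at 0.38 with 265 and 516 reads.

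Inhibitors of the pathway had a median log2 ratio of 0.62, and 6 of 18 were at least 2-fold higher and none at least 2-fold lower. Of the 6, Socs1, with 8 and 37 reads, passed the filter through the CKO-labelled library alone, and 5 were left past 2-fold for the deposited values with scaling. With equal totals 9 of the 18 were past it, with a median of 1.04, and for the unscaled deposited values 10, with a median of 1.08. These settings also moved all genes. Of all genes kept, 3870 of 17682 and 3574 of 20002 were then at least 2-fold higher, against 2334 of 17469. Socs3, a brake on cytokine receptors, had 84 and 1479 reads, for a log2 ratio of 3.54. Tnfaip3, the ubiquitin-editing protein A20, was at 2.53 with 136 and 1189 reads, and Nfkbie, an inhibitor protein of NF-kappaB, was at 1.77 with 140 and 718 reads. The lowest were Nlrx1, a mitochondrial inhibitor, at -0.61 with 419 and 411 reads, and Sigirr, an inhibitory receptor of the interleukin-1 receptor family, at -0.50 with 2090 and 2212 reads. Both kept their sign with equal totals and were at 0.025 and 0.091 with the values as deposited.

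Of 20 listed target cytokines and costimulators, 14 were in the table and 12 passed the filter. Of these 12, 9 were at least 2-fold higher, with a median log2 ratio of 2.16. The genes left out by the filter were Ccl3, with 9 and 13 reads, and Il12b, with 7 and 12, and Cd80, with 7 Control reads, passed through the CKO-labelled library alone. With no filter the median of the 14 was 1.81, and for the deposited values with scaling it was 1.28, with 9 of 14 past 2-fold. Ccl2 was highest at 6.22 with 13 and 1559 reads, or 5.51 with 10 reads added to each side and 4.50 for the deposited values with scaling. Cxcl1 was at 5.16 with 25 and 1395 reads, or 4.02 for the latter, and Ptgs2, the inducible cyclooxygenase, was at 3.29 with 11 and 175 reads, or 2.59 with 10 reads added to each side and 1.73 for the deposited values with scaling. The lowest of the 12 were Nos2, the inducible nitric oxide synthase, at 0.33 with 37 and 70 reads, and Ccl4 at 0.38 with 10 and 20 reads. The targets therefore did not differ alike. Tnf, Il1a, Il6, Il10, Il12a and Ifnb1 were not in the table and were not analysed here.

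**Figure D4:**
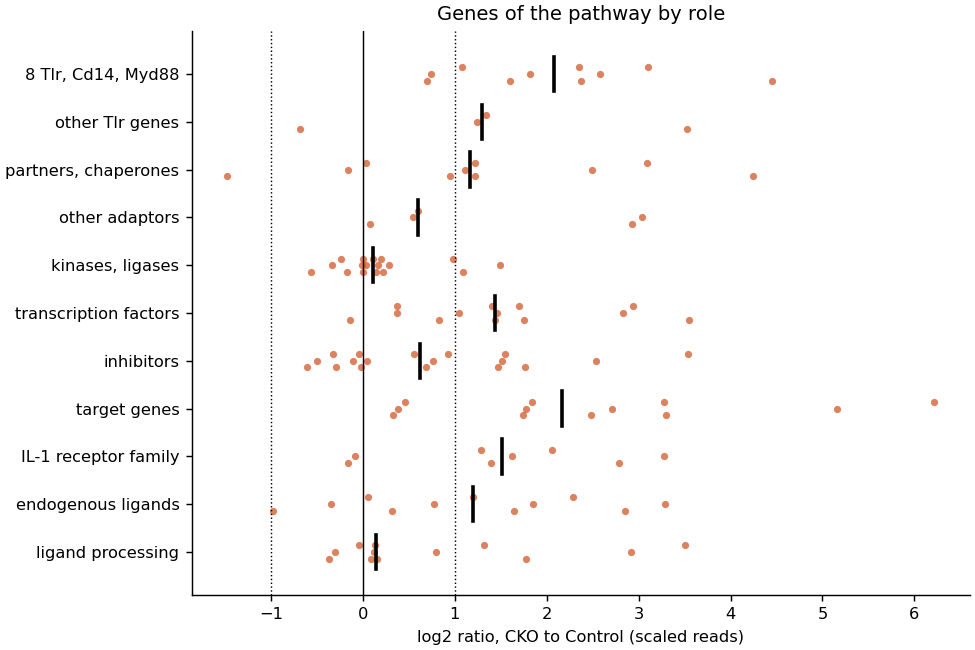
Log2 ratio of the CKO-labelled library to the Control library for each gene kept, by role in the pathway, with 1 point per gene, a bar at the median of the list and dotted lines at 2-fold. The median is 2.09 for the 10 members, 0.11 for the kinases and ubiquitin ligases and 2.16 for the target genes.

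Receptors and ligands of the interleukin-1 family, which also signal through Myd88, had a median log2 ratio of 1.51 over the 8 genes in the table, and 6 of the 8 were at least 2-fold higher. Il18r1 and Il18rap, the chains of the interleukin-18 receptor, were at 3.28 with 17 and 261 reads and at 2.79 with 11 and 123 reads, and for the deposited values with scaling they were at 2.01 and 1.35. That setting left 5 of the 8 past 2-fold. Il1rl2, the receptor of interleukin-36, was at 2.06 with 34 and 217 reads, or 1.39 under that setting. The accessory chain did not follow: Il1rap was at -0.16 with 436 and 586 reads, and Il18, the ligand, was at -0.08 with 79 and 112 reads. Both of these turned positive with equal totals, at 0.26 and 0.33.

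Host molecules described as TLR ligands were higher in part. Of 11 such genes in the table, 6 were at least 2-fold higher and none at least 2-fold lower, with a median log2 ratio of 1.2, or 0.69 for the deposited values with scaling, when 5 were past 2-fold. S100a8, with 7 Control reads, passed the filter through the CKO-labelled library alone. The matrix genes Tnc and Vcan were at 3.28 with 63 and 933 reads and at 2.29 with 28 and 211 reads, and Fgg, which encodes a fibrinogen chain, was at 2.85 with 51 and 560 reads. With scaling of the deposited values, Vcan was at 1.49 and Fgg at 2.26. The lowest were heat shock proteins. Hspd1, the mitochondrial chaperonin, was at -0.97 with 23365 and 17862 reads, or -0.39 for the unscaled deposited values, and Hsp90aa1 was at -0.34 with 15580 and 18417 reads, or 0.075 with equal totals. Another heat shock gene, Hspa1a, picked after its values were seen, was at 0.32 with 1854 and 3473 reads.

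Enzymes and transporters that prepare receptors and ligands in endosomes had a median log2 ratio of 0.14, or 0.56 with equal totals, and 4 of 12 were at least 2-fold higher. Ctss, a protease of antigen-presenting cells that cleaves endosomal TLRs, was at 3.50 with 264 and 4495 reads. Pld4, a nuclease that limits Tlr9 ligands, was at 2.92 with 80 and 915 reads, and Ctsk, a protease linked to Tlr9 signals, was at 1.77 with 128 and 660 reads. The lowest were Dnase2a, the lysosomal DNase, at -0.37 with 358 and 416 reads, and Slc15a4, a transporter needed for endosomal TLR signals, at -0.31 with 972 and 1179 reads, and both were above 0 with equal totals, at 0.050 and 0.11.

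Marker genes of cell types were read next, first those of macrophages and monocytes. Of 16 macrophage and monocyte markers in the table, 13 were at least 2-fold higher, with a median log2 ratio of 2.61 and summed reads of 5950 and 32248. Csf1r had most reads in the Control library, 2244, with 4803 in the other and a log2 ratio of 0.51, or 1.09 for the unscaled deposited values, and Lyz2 had most in the CKO-labelled library, at 518 and 9836 reads. Ms4a7, which passed the filter through the CKO-labelled library alone, was highest at 4.33 with 6 and 210 reads. With 10 reads added to each side, Lyz2 was highest at 3.64 and Ms4a7 was at 3.23, and for the deposited values with scaling they were at 3.59 and 2.10. Of the 16, Mertk was lowest at -0.32 with 1597 and 1921 reads, or 0.10 with equal totals. Ly6c2 was also short of 2-fold, at 0.32 with 161 and 302 reads. Cd163 and Trem2 were not analysed here. Ptprc, the pan-leukocyte gene CD45, had 209 and 1373 reads and was 4.38-fold higher (3.78 to 5.09). The part of these cells in the differences of the members was not tested.

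The other marker lists did not all follow. Dendritic cell markers had a median of 1.96, with 7 of 8 at least 2-fold higher and summed reads of 483 and 1648. Zbtb46 had most reads, 345 and 660, and was the lowest of the list at 0.35, and Itgax was highest at 2.57. Flt3, Xcr1 and Ccr7, with 8, 7 and 2 Control reads, passed the filter through the CKO-labelled library alone, and the median was 1.44 with 10 reads added to each side and 0.90 for the deposited values with scaling, when 3 of 8 were past 2-fold. T and NK cell markers had a median of 1.71 over 8 genes kept, with 6 at least 2-fold higher and summed reads of 193 and 576 for the 8. The lowest was Ncr1 at -0.46 (-1.60 to 0.63) with 15 and 16 reads, or 0.42 for the unscaled deposited values. The highest was Cd3g at 2.22 with 13 and 96 reads, or 1.05 for the deposited values with scaling. Trac had most reads in the Control library at 99, with 109 in the other. It was at -0.44 (-0.85 to -0.04) after scaling, or 0.26 for the unscaled deposited values. Of these 8, Cd3e, Cd8a and Nkg7 passed only through the CKO-labelled library, and Klrb1c did not pass. With 10 reads added to each side the median was 1.16 over the 8. For the deposited values with scaling it was 0.47 over all 9, with 2 of the 9 past 2-fold. Fibroblast and pericyte markers had a median of 1.70, with 6 of 7 at least 2-fold higher and summed reads of 5924 and 25195, from Pdgfrb, which had most reads in the Control library, at 0.48, or 1.06 for the unscaled deposited values, to Col1a1 at 2.65. Of 10 neutrophil markers only Csf3r, at 2.37 with 22 and 177 reads or 1.43 for the deposited values with scaling, and Ltf, at -1.58 with 16 and 7 reads or -0.83 with 10 added to each side, were in the table, and of 6 B cell markers only Cd79b, at 0.21 with 23 and 40 reads.

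Markers of endothelium, nephron segments and red blood cells had medians near or below 0. Endothelial markers had a median of 0.006 with none past 2-fold, from Kdr, which had most reads in the Control library, at -0.67 to Emcn at 0.14. For the unscaled deposited values Kdr was at -0.07. Proximal tubule markers had a median of -0.48, and 2 of 10 were at least 2-fold lower, Slc34a1 at -1.17 and Slc22a6 at -1.62, while Slc5a12 was highest at 0.41. Slc34a1 was short of 2-fold under equal totals, at -0.75, and for the unscaled deposited values, at -0.58, whereas Slc22a6 stayed past it at -1.21 and -1.04. Markers of other nephron segments had a median of -0.03 with none past 2-fold and Aqp2 highest at 0.79. Aqp2 passed the line at 1.21 under equal totals and at 1.37 for the unscaled deposited values, as did Umod at 1.05 for the latter, when 3 of the 10 were past it. The red blood cell markers had a median of -0.01, from Hba-a2 at -0.06 to Alas2 at 0.09. The signs of these medians depended on the scaling. With equal totals the medians of the endothelial, other nephron and red blood cell lists were 0.42, 0.39 and 0.41, and the proximal tubule median was 0.10 with the values as deposited.

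**Figure D5:**
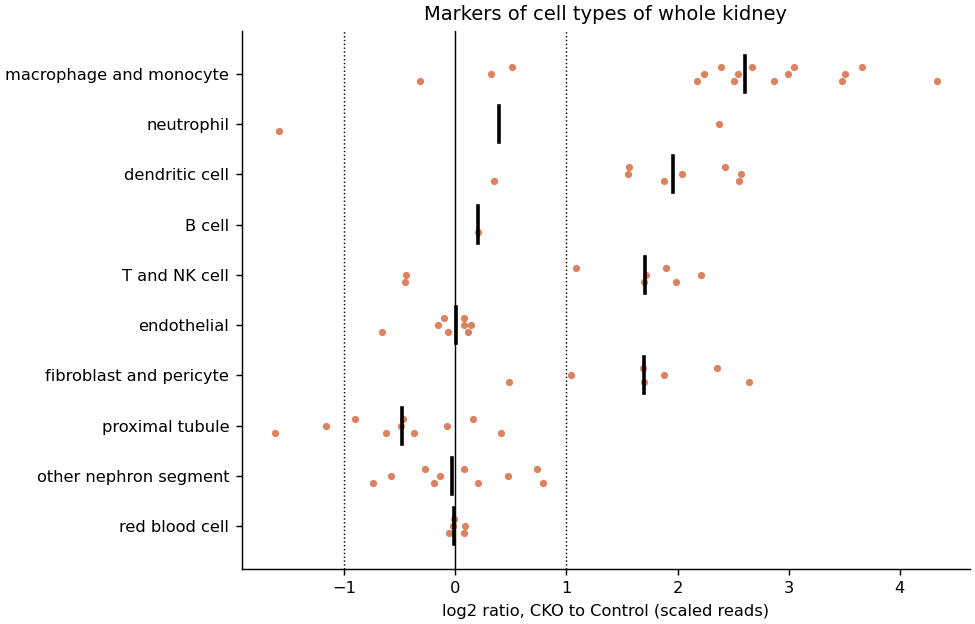
Log2 ratio of the CKO-labelled library to the Control library for marker genes of the cell types of whole kidney, with 1 point per gene kept, a bar at the median of each list and dotted lines at 2-fold. The macrophage and monocyte median is 2.61 and the proximal tubule median is -0.48.

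Set against Ptprc within each library, the members split into groups. Tlr8 had 0.0287 reads for each read of Ptprc in the Control library (0.0104 to 0.0635) and 0.167 in the CKO-labelled library (0.144 to 0.192). Tlr13 and Cd14 were also higher relative to Ptprc, at 0.0861 (0.0501 to 0.140) and then 0.178 (0.154 to 0.204), and at 0.770 (0.623 to 0.951) and then 1.06 (0.980 to 1.14). For these 3 genes the intervals of the libraries did not overlap. With the constants left in this held for Cd14 alone. Tlr8 then had 0.165 for each of Ptprc (0.115 to 0.231) and 0.196 (0.172 to 0.223), and Tlr13 had 0.214 and 0.207, with overlapping intervals for both. Tlr3, Tlr4 and Myd88 did the reverse. Tlr3 had 1.56 reads for each read of Ptprc (1.31 to 1.87) and then 0.583 (0.533 to 0.636), Tlr4 had 1.11 (0.913 to 1.34) and then 0.536 (0.489 to 0.587), and Myd88 had 2.06 (1.74 to 2.44) and then 0.786 (0.725 to 0.852). Tlr1, Tlr2, Tlr6 and Tlr7 had overlapping intervals, so no change relative to Ptprc was detectable for them. With the constants left in, Tlr1 and Tlr6 were lower relative to Ptprc, with intervals that did not overlap. Intervals with the constants left in measure counting error only if the deposited values are themselves reads. Set against Adgre1, the macrophage gene F4/80, which had 87 and 770 reads, Tlr8 alone was higher beyond counting error once the constants were subtracted, Tlr1, Tlr3, Tlr4, Tlr6 and Myd88 were lower, and the intervals of Tlr2, Tlr7, Tlr13 and Cd14 overlapped. For Cd14 this ratio was 1.85 (1.42 to 2.43) and then 1.88 (1.72 to 2.06). With the constants left in, Tlr8 had 0.331 and 0.340 for each of Adgre1, and its intervals overlapped too. In which cells the RNA of each member lay was not tested.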

How the data were processed

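The authors used STAR 2.7.3a for alignment, HTSeq for counting and DESeq2 for normalization. Their methods also name Cufflinks 2.2.1 and FPKM, which are not used here. The score they deposited is called normalized counts by the authors, and it comes as whole numbers for 20002 genes with lowest values of 35 (Control) and 51 (CKO). The column minimum minus 1 (34 and 50) was subtracted to give reads, which assumes a constant added to every gene. Since the table holds only genes above that constant in both libraries, a gene not in it has no value here. CKO reads were multiplied by 0.667, log2((CKO + 1)/(Control + 1)) was taken, the filter asked for 10 scaled reads in either library, and a 2-fold line was used. Folds given in the text had no read added. Intervals of ratios, and of ratios or shares within a library, are 95% Clopper-Pearson intervals from the shares of reads, and those of levels are exact Poisson intervals. With 1 library a group no test was made. Lengths are of the longest GENCODE M21 transcript. Genes named were the members, the other Tlr genes, the 3 highest and 2 lowest ratios of each pathway list and those at least 2-fold lower, and the leading, highest and lowest marker of each cell type. Genes that failed the filter, or passed it through the CKO-labelled library alone, were added after the values were seen. Not every gene under this rule is reported here. Members and lists were chosen with earlier results of these data known. Pseudocounts of 0.1 and 10, 3 other scalings, 3 treatments of the constant, thresholds of 1.5-fold and 4-fold and 2 other filters were tried. The steps were tested on simulated data, which were given the constants 34 and 50 and counting error only. That test therefore cannot show that the deposited columns hold such constants. The scripts ran in Python 3.11.15 with scipy 1.17.1, numpy 2.4.6, pandas 2.3.3 and matplotlib 3.10.9.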

Additional observations from a re-analysis of the deposited data

How the results depend on the processing

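No paired analysis was possible because only 1 library stood for each group. The log2 ratio of each of the 10 members kept its sign in all 80 values under the alternatives. All 80 are recomputed from the same 2 libraries. The scale factors tried ran from 0.657 to 1, beside the 0.667 used, so scaling could hardly have lowered a ratio. Equal totals moved Tlr1 to 2.23, Tlr2 to 2.80, Tlr3 to 1.12, Tlr4 to 1.5, Cd14 to 3.0 and Myd88 to 1.16. The values as deposited without scaling gave 1.23 for Tlr3, 1.56 for Tlr4, 2.77 for Tlr8, 2.48 for Tlr13, 2.94 for Cd14 and 1.28 for Myd88. The values as deposited with scaling gave 1.46 for Tlr1, 2.08 for Tlr2, 1.05 for Tlr6, 1.67 for Tlr7, 2.20 for Tlr8 and 1.91 for Tlr13. A pseudocount of 10 gave 3.35 for Tlr8. A constant left in both columns draws the ratio of a gene with few reads toward that of the constants. The number of members at least 2-fold higher was 5 at 4-fold, 7 with the values as deposited and scaled, 10 at 1.5-fold, under equal totals and for the unscaled deposited values, and 8 otherwise.

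The medians of the kinase, endothelial and red blood cell lists were 0.53, 0.42 and 0.41 with equal totals and 0.69, 0.59 and 0.57 with the values as deposited, as the shift of all genes by these settings brings about. Ltf, with 16 and 7 reads, reversed to 0.19 with the values as deposited. Over all genes, 2334 were at least 2-fold higher and 934 lower. Equal totals gave 3870 and 437, the values as deposited 3574 and 131, and these with scaling 1196 and 463. A 1.5-fold threshold gave 3801 higher and 2423 lower genes, a 4-fold threshold 749 and 166, and at least 50 scaled reads left 617 lower, from fewer genes. Among the Tlr genes, Tlr8, with 6 Control reads, and Tlr9, with 7, have the fewest, and Ccr7, with 2, and Ticam2, with 4, have fewer still.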
